A study of Mus musculus with 17 samples.

Results

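The collagen genes were taken as every row of the mouse expression table whose symbol was Col, a number, a and a further number (Col1a1 to Col28a1). This gave 44 of 55453 gene symbols, all of them present in the GENCODE M21 annotation of GRCm38. The values were TPM, the transcript abundance unit that scales every library to the same total and corrects for transcript length, so that levels of different genes can be set side by side. Of the 44 genes, 28 had a mean of at least 1 TPM over all mice and entered the tests, which were run on 16265 genes in all.

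RNA had been sequenced from bulk cortex of 17 male C57BL/6J mice. Hemizygous Hnrnph2 KO mice (3) and their wild-type littermates (KO controls, 3) were 8 weeks old, as were hemizygous Hnrnph2 R206W mice (3) and their wild-type littermates (R206W controls, 3). Hemizygous Hnrnph2 P209L mice (3) and their wild-type littermates (P209L controls, of which 2 were analysed here) were 3 weeks old. Hnrnph2 lies on the X chromosome and encodes an RNA-binding protein; R206W and P209L are substitutions in its nuclear localization signal, knocked into the mouse gene, and the KO is a line in which an indel shifted the reading frame. Every mutant mouse carried its allele from the germline, and the P209L males were those that had survived to sampling. All 3-week mice came from the P209L line and all 8-week mice from the other lines, so line and age cannot be told apart. Nothing in the labels says whether mice of a group came from separate litters, and p-values measure the spread between these mice.

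Collagens are secreted or membrane-bound proteins whose alpha chains wind around each other in a rope-like helix, and each type is defined by the chains it contains. In the brain most fibril-forming collagen is made by fibroblasts of the meninges and vessel walls, type IV collagen forms the basement membrane around vessels, and some minor collagens are made by neurons and glia. New chains are hydroxylated in the endoplasmic reticulum before they wind into the helix, which is then exported and, for fibrillar types, trimmed and crosslinked outside the cell.

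Hnrnph2 served as the check of the KO labels. It was at 21.3 to 24.4 TPM in the KO mice against 80.5 to 145 TPM in their controls. In R206W mice it was at 135 to 160 TPM against 140 to 149 TPM in their controls. In P209L mice it was at 84.5 to 103 TPM against 81.6 and 91.4 TPM in their controls. These groups overlapped, so the level of Hnrnph2 could not check the R206W and P209L labels. Among the libraries, KO control 1 had the largest share of TPM from mitochondrial genes (20.1%, against 10.7% to 15.4% elsewhere) and the lowest sum over the collagen genes. P209L control 2 carried choroid plexus transcripts: Ttr was at 1740 TPM, against at most 23.2 TPM in the other 16 mice, and the other 5 choroid plexus markers (Kl, Folr1, Clic6, Kcnj13 and Otx2) were also highest there. Where leaving out 1 of these 2 libraries moved a collagen median or a followed gene difference below by more than 1.5 times, the value without it is given. Only part of the collagen gene differences was followed in this way. The age differences of Col1a1, Col1a2, Col3a1, Col6a2 and Col27a1 were not, nor were the sums, the ratios, and the marker and pathway lists.

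Most collagen genes called between ages were higher in the younger cortex. The promoters below are shown for genes of each direction, because they let a reader compare the start regions of collagen genes that were called higher at 3 weeks (Col5a1, Col24a1 and Col23a1) with those of the only collagen genes that were called lower (Col19a1 and Col25a1). RefSeq promoters (GRCm38.p6) were matched by symbol for 35 of 44 collagen genes (all but Col1a1, Col2a1, Col4a3, Col5a2, Col9a3, Col12a1, Col14a1, Col22a1 and Col26a1). Each line gives bases before the RefSeq start, 5′ to 3′ on the strand of the gene, without any base in a GENCODE exon. Capitals mark CCAAT and GGGCGG (a GC box), read on both strands; the windows hold neither TATAAA nor ACAAAG.
Col5a1: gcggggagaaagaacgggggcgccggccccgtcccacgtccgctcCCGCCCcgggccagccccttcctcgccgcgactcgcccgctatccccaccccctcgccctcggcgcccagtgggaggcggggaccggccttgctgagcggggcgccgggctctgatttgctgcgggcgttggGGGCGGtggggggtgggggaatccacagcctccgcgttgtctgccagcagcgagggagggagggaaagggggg
Col24a1: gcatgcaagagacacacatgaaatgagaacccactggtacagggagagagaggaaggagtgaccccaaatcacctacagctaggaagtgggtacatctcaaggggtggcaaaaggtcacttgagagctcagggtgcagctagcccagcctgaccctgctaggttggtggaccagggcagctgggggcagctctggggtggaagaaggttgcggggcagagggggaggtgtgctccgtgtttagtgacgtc
Col23a1: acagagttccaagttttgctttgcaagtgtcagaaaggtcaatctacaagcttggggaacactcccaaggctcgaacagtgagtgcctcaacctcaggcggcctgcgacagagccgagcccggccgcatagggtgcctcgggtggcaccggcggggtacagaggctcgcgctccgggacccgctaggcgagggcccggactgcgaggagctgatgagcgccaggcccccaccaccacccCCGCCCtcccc
Col19a1: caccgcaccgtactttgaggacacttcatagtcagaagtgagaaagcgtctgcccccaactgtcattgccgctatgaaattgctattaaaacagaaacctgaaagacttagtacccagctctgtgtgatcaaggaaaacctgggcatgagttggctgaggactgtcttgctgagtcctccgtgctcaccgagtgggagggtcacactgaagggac
Col25a1: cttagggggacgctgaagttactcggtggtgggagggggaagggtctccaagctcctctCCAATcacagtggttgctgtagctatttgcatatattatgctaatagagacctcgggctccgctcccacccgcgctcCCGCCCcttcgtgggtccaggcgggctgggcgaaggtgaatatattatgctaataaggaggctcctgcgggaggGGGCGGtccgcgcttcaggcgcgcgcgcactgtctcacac

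The printed windows were chr2:27886175-27886424 (plus strand) for Col5a1, chr3:145292222-145292471 (plus) for Col24a1, chr11:51289670-51289919 (plus) for Col23a1, chr1:24587473-24587687 (minus) for Col19a1 and chr3:130180595-130180844 (plus) for Col25a1. The Col19a1 window had 215 bases, since an exon covers the rest of its 250, and the other windows had 250. Only the first RefSeq entry of each gene was printed. The Col25a1 window lies inside the GENCODE gene (130131501 to 130599877), downstream of its GENCODE start. GGGCGG occurred 2 times in the Col5a1 window, 2 times in the Col25a1 window and 1 time in the Col23a1 window, so it was present on both sides of the age difference. Over the 250 bases before the start, GGGCGG was in 60.0% of the 35 collagen genes and in 35.4% of 27025 genes with a promoter entry. CCAAT was in 37.1% of the collagen genes and 37.5% of all genes, and TATAAA in 14.3% of each. ACAAAG, the core letters read by Sox factors, was in 11.4% of the collagen genes and 18.6% of all genes. These are matches of letters and not tested binding sites.

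The most abundant collagen transcript at both ages was Col6a1, a chain of the beaded filaments of type VI collagen, with a mean of 35.8 TPM over the 5 mice at 3 weeks and 18.6 TPM over the 12 at 8 weeks. The order below it differed by age. At 3 weeks the fibrillar chain Col5a1 (18.6 TPM), the fibril-associated chains Col16a1 (17.01 TPM) and Col9a3 (16.9 TPM) and Col26a1 (16.0 TPM) came next, and the basement membrane chains Col4a2 and Col4a1 were in places 6 and 7. At 8 weeks Col4a1 (15.7 TPM) and Col4a2 (15.5 TPM) came next, then the transmembrane collagen Col25a1 (11.6 TPM) and Col19a1 (10.4 TPM). Neighbours in these orders often lay within the spread between mice. The collagens that dominate skin, bone and tendon were minor here: over all 17 mice Col1a2 had a mean of 4.17 TPM, Col3a1 1.89 TPM and Col1a1 1.58 TPM. Cartilage collagen Col2a1 had a mean of 0.485 TPM. The 16 genes below the filter ranged from 0 to 2.07 TPM, and 9 of them stayed under 1 TPM in every mouse, among them Col4a3, Col4a4 and Col4a6 of the type IV family.

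Summed over the 44 genes, collagen transcripts made up 164 ± 40.9 TPM in KO controls, 164 ± 35.9 in KO mice, 178 ± 4.84 in R206W controls and 186 ± 19.4 in R206W mice (SD, n = 3 each). The sum was 254 ± 21.8 TPM in P209L controls (n = 2) and 220 ± 5.33 in P209L mice (n = 3). The lowest 3-week mouse had 214 TPM and the highest 8-week mouse 208 TPM, so the sums of the 2 ages did not overlap. The make-up of this sum also differed by age. Type VI and related chains held 28.4% ± 0.736 of it in the 5 mice at 3 weeks and 21.3% ± 1.67 in the 12 at 8 weeks, while type IV chains held 12% ± 0.925 and 19.0% ± 2.30 (SD over mice). Transmembrane collagens held 6.22% ± 1.19 at 3 weeks and 9.28% ± 1.22 at 8 weeks. Fibrillar chains held like shares, 24.3% ± 1.70 and 22.8% ± 1.19. In bulk tissue, fewer cells of a type and less RNA per cell cannot be told apart.

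To compare the ages, the P209L controls (3 weeks) were set against the mean of both 8-week control groups. Of the 28 collagen genes, 16 passed an adjusted p of 0.05 (limma, Benjamini-Hochberg over all genes tested), 14 higher and 2 lower at 3 weeks. Over all 16265 genes, 36.1% passed, 11.3% higher and 24.8% lower. The median log2 difference of the 28 was 0.41, against -0.12 over all genes. By class, 5 of 9 fibrillar genes, 3 of 4 type VI and related genes, 3 of 6 fibril-associated genes (FACITs, short collagens that sit on fibrils), the anchoring fibril gene Col7a1, 1 of 2 transmembrane genes and 1 of 2 multiplexin genes were higher. None of the 3 type IV genes passed in either direction.

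**Figure D1:**
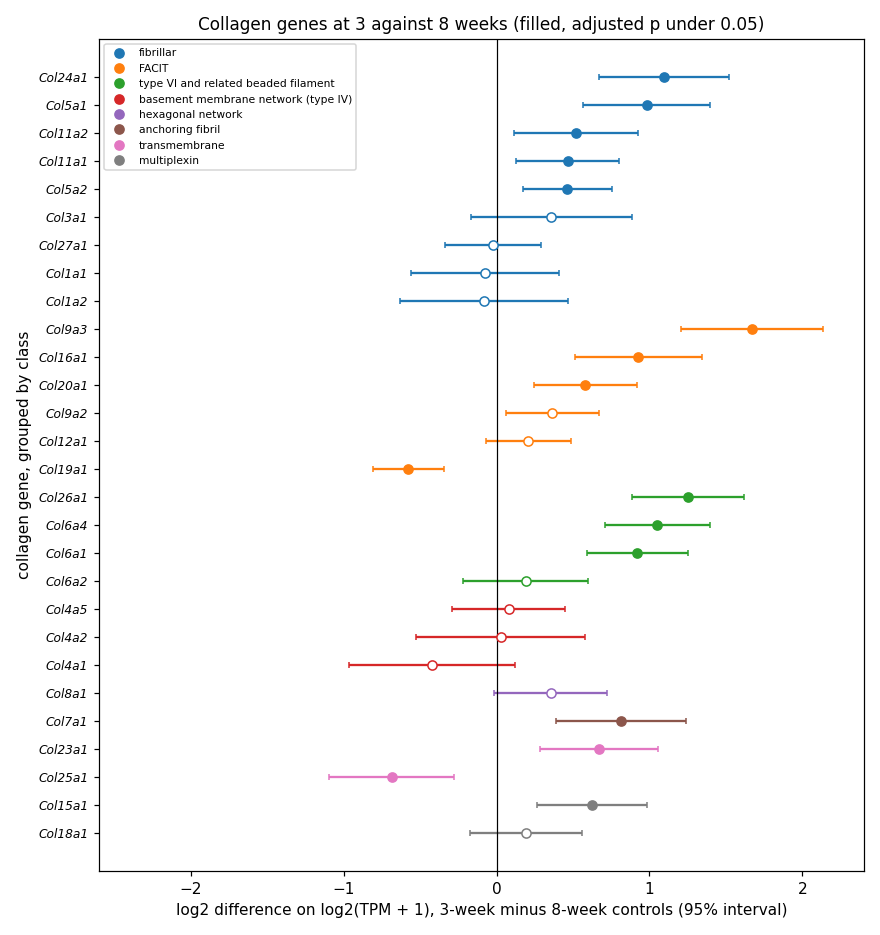
Difference between P209L controls (3 weeks, n = 2) and the 8-week controls (n = 6) for the 28 tested collagen genes, on the log2(TPM + 1) scale with 95% intervals, coloured by class; filled points passed the adjusted threshold. 14 filled points lie right of 0 and 2 (Col19a1 and Col25a1) left of it, and the 3 type IV points are open.

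Col9a3, a chain of the fibril-associated type IX collagen, had the largest difference. It was at 18.5 and 26.0 TPM in the P209L controls, and at 4.90 (lowest), 6.30 (median) and 7.41 TPM (highest) in the 6 controls at 8 weeks. The log2 difference was 1.67 ± 0.22 (SE, adjusted p = 8.4e-05). The higher value came from P209L control 2, the library with choroid plexus transcripts, but P209L control 1 alone was also above every 8-week mouse. P209L mutants were at 10.1, 13.3 and 16.4 TPM, below both of their controls, and their lowest value overlapped the highest 8-week value, 10.2 TPM in KO 3. The partner chain Col9a2 was at 6.40 and 7.76 TPM at 3 weeks against 4.15 to 6.04 TPM in the 8-week controls, a log2 difference of 0.36 ± 0.14 that missed the threshold (adjusted p = 0.057) and was 0.24 without P209L control 2.

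In the type VI family, Col6a1 was higher at 3 weeks while its partner Col6a2 did not pass. Col6a1 was at 36.6 and 41.8 TPM in P209L controls and at 13.3 (lowest), 20.9 (median) and 24.1 TPM (highest) in 8-week controls (log2 difference 0.92 ± 0.16, adjusted p = 0.00051). P209L mutants were at 32.0, 33.0 and 35.4 TPM, so all 5 mice at 3 weeks were above all 12 at 8 weeks. Col6a2, which joins Col6a1 in the same helix, was at 7.25 and 7.86 TPM against 4.03 to 8.54 TPM (log2 difference 0.19 ± 0.19, adjusted p = 0.46). The 2 genes are neighbours on the minus strand of chromosome 10, Col6a2 at 76595762 to 76623630 and Col6a1 at 76708792 to 76726168, with 85161 bases between them.

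Type VI collagen needs a further chain, for which Col6a3 and its relatives Col6a4, Col6a5 and Col6a6 are alternatives. Col6a4 was at 4.09 and 4.18 TPM in P209L controls, 4.01, 4.14 and 5.06 TPM in P209L mutants, and 0.93 (lowest), 1.63 (median) and 2.36 TPM (highest) in the 12 mice at 8 weeks. The control difference was 1.05 ± 0.16 on the log2 scale (adjusted p = 0.00025), and the ages did not overlap. Col6a4 exceeded Col6a3 in all 5 mice at 3 weeks and all 12 at 8 weeks. Col6a3 stayed between 0.28 and 1.46 TPM throughout and Col6a5 and Col6a6, which lie beside Col6a4 on chromosome 9, had means of 0.304 and 0.112 TPM. Col26a1, a short collagen grouped here with the beaded filament genes, was at 20.0 and 19.2 TPM in P209L controls against 5.99 to 9.23 TPM in 8-week controls (log2 difference 1.25 ± 0.17, adjusted p = 0.00011).

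Among the fibrillar genes, the chains that nucleate and limit fibrils were higher at 3 weeks and the bulk chains of types I and III did not pass. Col5a1 was at 16.9 and 21.7 TPM in P209L controls and at 6.78 (lowest), 9.44 (median) and 12.1 TPM (highest) in 8-week controls, with a log2 difference of 0.98 ± 0.20 (adjusted p = 0.0015). P209L mutants were at 16.2, 18.9 and 19.1 TPM, again above every 8-week mouse. Col24a1, a minor fibrillar chain, was at 7.64 and 9.93 TPM against 2.36 to 4.59 TPM (1.09 ± 0.20, adjusted p = 0.00083). Its P209L mutants, at 8.19, 8.67 and 9.90 TPM, lay within the range of their controls. The smaller differences were those of Col5a2 (0.46 ± 0.14), Col11a1 (0.47 ± 0.16) and Col11a2 (0.52 ± 0.19). Col1a1 (-0.08 ± 0.23), Col1a2 (-0.08 ± 0.26), Col3a1 (0.36 ± 0.25) and Col27a1 (-0.02 ± 0.15) did not pass, and the 95% interval of Col1a2 ran from -0.63 to 0.47. Col3a1 and Col5a2 are neighbours on chromosome 1, 24614 bases apart and pointing toward each other.

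**Figure D2:**
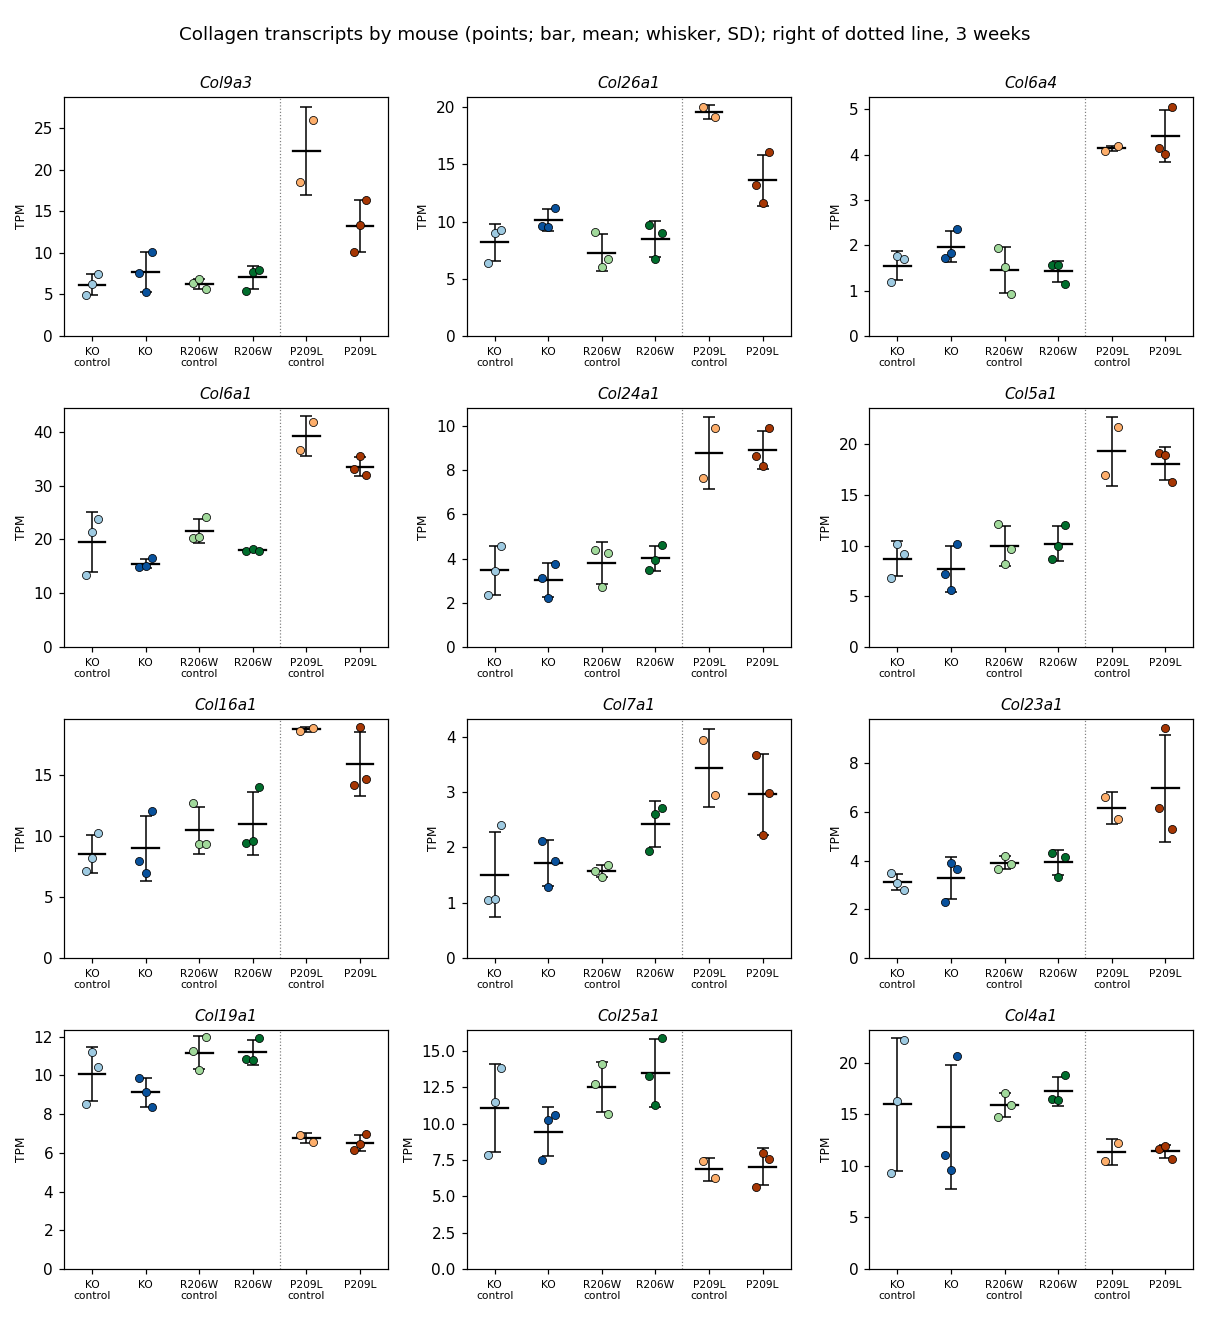
TPM of 12 collagen genes in every mouse by group, with group mean and SD; the P209L line (right of the dotted line) was sampled at 3 weeks and the others at 8 weeks. Points of both 3-week groups lie above all 8-week points for Col26a1, Col6a4, Col6a1, Col24a1, Col5a1, Col16a1 and Col23a1 and below all of them for Col19a1, while Col4a1 overlaps.

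Of the other genes higher at 3 weeks, Col16a1, a FACIT, was at 18.6 and 18.9 TPM against 7.11 to 12.7 TPM in the 8-week controls (log2 difference 0.93 ± 0.20, adjusted p = 0.0023). Col7a1, the anchoring fibril collagen known from skin, was at 3.94 and 2.94 TPM against 1.05 to 2.4 TPM (0.82 ± 0.20, adjusted p = 0.0057). Col23a1, a transmembrane collagen, was at 6.61 and 5.69 TPM against 2.81 to 4.18 TPM (0.67 ± 0.18, adjusted p = 0.0098). Col15a1, a multiplexin of the basement membrane zone (0.63 ± 0.17), and the FACIT Col20a1 (0.58 ± 0.16) completed the list. Col20a1 lies 364345 bases downstream of Col9a3 on chromosome 2, and both were higher.

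The 2 genes called lower at 3 weeks were Col19a1 and Col25a1, both known to be made by neurons. Col19a1, a FACIT linked to synapse formation, was at 6.93 and 6.58 TPM in P209L controls, 6.14, 6.46 and 6.95 TPM in P209L mutants, and 8.36 (lowest), 10.6 (median) and 12 TPM (highest) in the 12 mice at 8 weeks. The log2 difference of the 3-week controls was -0.58 ± 0.11 (adjusted p = 0.0012), with no overlap between the ages. Col25a1, the transmembrane collagen also found in amyloid plaques, was at 7.41 and 6.29 TPM in P209L controls and at 7.84 (lowest), 12.1 (median) and 14.1 TPM (highest) in 8-week controls (log2 difference -0.68 ± 0.19, adjusted p = 0.012). The P209L mutants reached 7.97 TPM, so the ages overlapped once mutants were included. Neuron markers were also lower at 3 weeks, 4 of 8 tested past the threshold, against 24.8% of all genes called lower. All 8 were below 0 with a median of -0.58, against -0.12 over all genes. The part of the neuron markers was not tested. Col19a1 neighbours Col9a1 on chromosome 1, 9205 bases away, and Col9a1 was at 0.66 to 0.85 TPM in the 5 mice at 3 weeks and 0.13 to 0.41 TPM in the 12 at 8 weeks.

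Col9a1 was among the genes too low for the main test. Without the filter (33969 genes, 16.1% of them past the threshold), 5 of the 16 low collagen genes passed: Col22a1 (0.72 ± 0.10, adjusted p = 0.0004), Col5a3 (0.44 ± 0.07, adjusted p = 0.0013), Col9a1 (0.42 ± 0.07, adjusted p = 0.002), Col28a1 (0.31 ± 0.09, adjusted p = 0.027) and Col6a6 (0.10 ± 0.03, adjusted p = 0.046). All 5 were higher at 3 weeks. Col22a1, a FACIT of tissue junctions, was at 1.26, 1.44 (median) and 2.07 TPM over the 5 mice at 3 weeks, lowest to highest, against 0.36, 0.53 and 0.64 TPM over the 12 at 8 weeks. Col5a3 was at 1.08 to 1.81 TPM against 0.46 to 0.69 TPM. Steps of 0.01 TPM in the table are coarse for genes this low, above all for Col6a6, which stayed at or under 0.18 TPM.

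Among the controls alone, 15 of 28 genes had both P209L controls above all 8-week controls and 2 had both below, against 16.7% and 21.5% of all genes. With the P209L mutants included, 8 of the 28 tested genes were higher in all 5 mice at 3 weeks than in all 12 at 8 weeks (Col5a1, Col5a2, Col6a1, Col6a4, Col16a1, Col23a1, Col24a1 and Col26a1) and 1 was lower (Col19a1). Over all genes tested, 6.49% were higher and 10.2% lower in this way. Between the 2 control groups aged 8 weeks, 0 collagen genes passed, as did 0% of all genes, and 0 of 28 had an unadjusted p under 0.05, against 3.12% of all genes (R206W controls against KO controls, limma). The lowest p was that of Col6a2, with a log2 difference of 0.34 ± 0.19 that was 0.14 without KO control 1. Leaving out P209L control 2 left 10 genes called, all of them among the 16, with 16.7% of all genes called; leaving out KO control 1 as well gave 11, with 36% of all genes called. Without P209L control 2 the median difference of the 28 genes was 0.26 and Col11a1 differed by 0.28 (adjusted p = 0.35). In these fits the lone P209L control was assumed to vary like the other groups. Of the 16 genes, 8 passed in every alternative that tested them: Col9a3, Col26a1, Col6a4, Col6a1, Col24a1, Col19a1, Col5a1 and Col16a1. The other 8 lost the call in at least 1 alternative, Col11a2 in 13 of 24, and none of the 16 changed sign. Other marker lists moved with age too: 5 of 5 blood markers and 5 of 8 oligodendrocyte markers were called higher, against 11.3% of all genes. Of 12 leptomeningeal fibroblast markers, 1 was called higher (Mgp) and 1 lower (Aldh1a2), against 24.8% of all genes called lower. P209L control 2 had higher sums than P209L control 1 for blood (4884 against 2572 TPM) and oligodendrocyte markers (6103 against 4090 TPM). No values without it were taken for these marker lists. Their part in the collagen differences was not tested.

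The type IV chains did not pass, but the balance between them differed by age. Col4a1 and Col4a2 are read in opposite directions from a shared start region on chromosome 8, Col4a1 at 11198423 to 11312826 (minus strand) and Col4a2 at 11312805 to 11449287 (plus strand), so that their annotated starts overlap by 22 bases. The libraries kept strand, but whether quantification used it is not given in the sources used here. Col4a1 was at 10.4 and 12.3 TPM in P209L controls and at 9.36 (lowest), 16.1 (median) and 22.2 TPM (highest) in 8-week controls (log2 difference -0.42 ± 0.26, adjusted p = 0.21). Without KO control 1, which had the lowest Col4a1 of all mice, the difference was -0.58 (adjusted p = 0.031). Col4a2 was at 14.4 and 16.5 TPM against 9.65 to 22.0 TPM (0.03 ± 0.26, adjusted p = 0.95), and it was -0.12 without KO control 1 and -0.065 without P209L control 2.

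Within each mouse at 8 weeks the 2 chains were at like levels. The ratio of Col4a1 to Col4a2 was 0.999 ± 0.0254 in KO controls, 0.974 ± 0.0277 in KO mice, 1.05 ± 0.0229 in R206W controls and 1.04 ± 0.111 in R206W mice (SD, n = 3 each). It was 0.732 ± 0.0136 in P209L controls (n = 2) and 0.818 ± 0.0822 in P209L mice (n = 3). The 5 mice at 3 weeks ranged from 0.722 to 0.895 and the 12 at 8 weeks from 0.928 to 1.15. This held although Col4a1 itself ranged from 9.36 to 22.2 TPM within the KO controls. Since a ratio shows unequal change, it does not say which chain differed. The other type IV pairs that share a start region, Col4a3 with Col4a4 (71 bases apart on chromosome 1) and Col4a5 with Col4a6 (1308 bases apart on the X chromosome), were too low for ratios, apart from Col4a5 at 0.87 to 2.04 TPM.

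**Figure D3:**
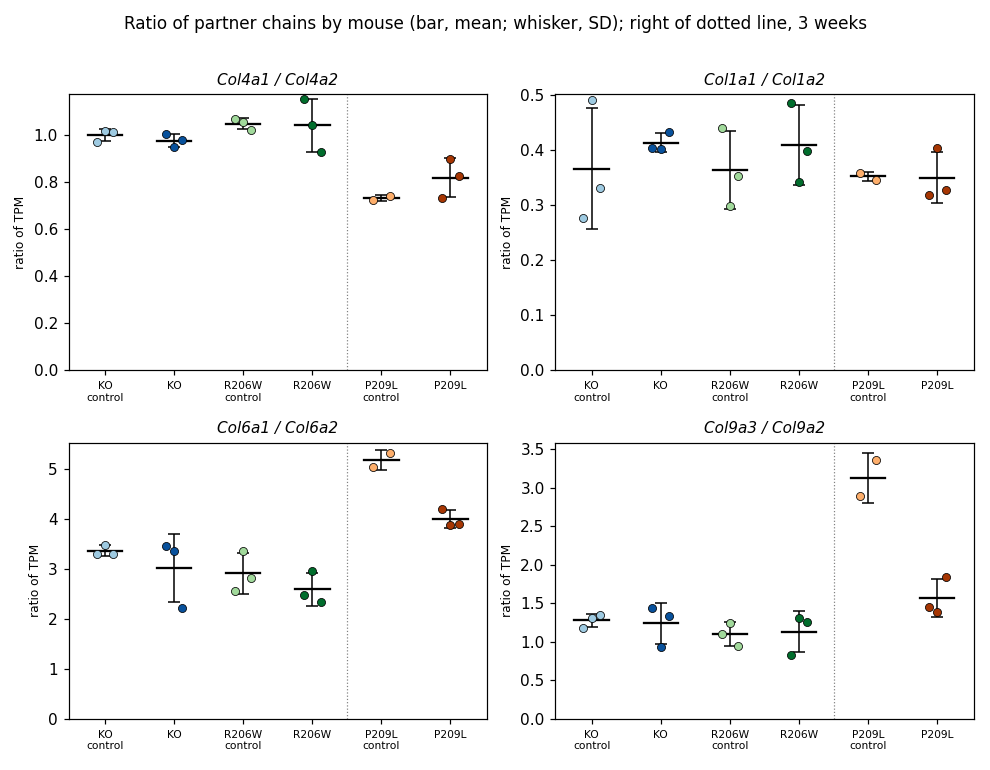
Ratio of TPM between partner chains in every mouse by group, with mean and SD; the P209L line was sampled at 3 weeks. Col4a1/Col4a2 is at most 0.895 in the 5 mice at 3 weeks and at least 0.928 in the 12 at 8 weeks, Col6a1/Col6a2 separates the ages the other way, and Col1a1/Col1a2 overlaps between the ages.

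Other partner chains behaved in different ways. Col6a1 to Col6a2 was 3.88 to 5.32 at 3 weeks and 2.23 to 3.49 at 8 weeks. Col9a3 to Col9a2 was 3.12 ± 0.329 in P209L controls (n = 2), 1.56 ± 0.246 in P209L mice (n = 3) and 0.832 to 1.44 at 8 weeks, so that the P209L mutants, at 1.39 to 1.85, overlapped the older mice and their own controls did not. Col1a1 to Col1a2 was 0.277 to 0.490 over all 17 mice, and the ages overlapped. Type I collagen is known to be built mostly with more alpha 1 than alpha 2 chains, while Col1a2 had the higher TPM in 17 of 17 mice.

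The KO comparison asked how loss of Hnrnph2 affected the cortex. No collagen gene was called (0 of 28, against 0.00615% of all genes, limma), and 1 of 28 had an unadjusted p under 0.05, against 4.08% of all genes. That gene was Col20a1, at 1.41, 1.32 and 1.66 TPM in KO mice and 0.55, 1.07 and 1.1 TPM in KO controls, a log2 difference of 0.38 ± 0.16 (adjusted p = 0.999). Every KO mouse was above every control, and without KO control 1, the lowest of them, the difference was 0.24. The other 2 genes of lowest p were Col9a2 (0.29 ± 0.14) and Col1a1 (0.41 ± 0.23, or 0.26 without KO control 1 and 0.15 without KO 3), and for both the groups overlapped. Beside Col20a1, the only 1 of the 28 tested genes with groups apart was Col26a1. Col26a1 was at 9.52 to 11.2 TPM in KO mice and 6.35 to 9.23 TPM in controls. Its difference was 0.29, and 0.13 without KO control 1. Over all genes, 5.43% were higher without overlap. None of the 28 was lower in this way, against 0.824% of all genes. Among the genes under the filter, Col22a1 was higher without overlap (0.50 to 0.58 against 0.38 to 0.47 TPM). Col4a4 was lower without overlap (0.13 against 0.14 to 0.16 TPM). The difference was above 0 for 18 of 28 genes, against 67.3% of all genes, and its median was 0.09 (0.027 without KO control 1), against 0.06 over all genes.

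Col6a1 was at 14.9, 15.1 and 16.5 TPM in KO mice and at 13.3, 21.4 and 23.9 TPM in their controls (log2 difference -0.28 ± 0.16, adjusted p = 0.999). The low control was KO control 1, and without it the difference was -0.52 (adjusted p = 0.246). The planned weights for each mouse, which did not converge, gave 0 calls. Weights estimated gene by gene, an alternative added after seeing the data, gave KO control 1 the lowest weight (0.0819), and 6 collagen genes were then called lower in KO mice (Col4a1, Col4a2, Col5a1, Col6a1, Col15a1 and Col25a1), with 13.1% of all genes called in that fit. Leaving KO control 1 out gave 0 calls. Leptomeningeal fibroblast markers were above 0 in KO mice for 11 of 12 tested and brain endothelial markers for 10 of 10, against 67.3% of all genes. Without overlap were 3 fibroblast and 0 endothelial markers, against 5.43% of all genes higher in this way. KO control 1 had a brain endothelial sum of 264 TPM, against 332 and 404 TPM in the other KO controls. No values without it were taken for these lists, and their part was not tested.

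The R206W comparison gave 0 of 28 collagen genes called, against 0.0369% of all genes (limma), and 1 of 28 at an unadjusted p under 0.05, against 2.19%. This was again Col20a1, at 1.14, 1.72 and 1.80 TPM in R206W mice and 1.16, 0.83 and 0.88 TPM in R206W controls (log2 difference 0.38 ± 0.16, adjusted p = 1). Here the groups overlapped. Col7a1 was at 1.94 to 2.72 TPM against 1.47 to 1.69 TPM, Col12a1 at 4.53 to 4.68 TPM against 3.72 to 3.99 TPM, and Col5a2 at 1.03 to 1.43 TPM against 0.93 to 1.02 TPM, all without overlap. Over all genes, 8.09% were higher and 8.11% lower without overlap. Col6a1 was the only collagen gene lower in this way, at 17.8 to 18.1 TPM in R206W mice and 20.2 to 24.1 TPM in controls (log2 difference -0.25 ± 0.16, adjusted p = 1). The difference was above 0 for 22 of 28 genes, against 52.9% of all genes, with a median of 0.09 (0.015 without R206W 3) against 0.01. Leptomeningeal fibroblast markers were below 0 in R206W mice for 11 of 12 tested, oligodendrocyte markers for 8 of 8 and blood markers for 5 of 5, of which 3 had no overlap. None of these passed, and their part was not tested.

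Loss of the protein and the R206W substitution were set against each other through the difference of their effects. No collagen gene was called (0 of 28, against 0.0307% of all genes), and 0 had an unadjusted p under 0.05, against 2.29% of all genes (limma). The gene-by-gene weights gave 1 call (Col15a1), with 1.96% of all genes called. The genes of lowest p were Col15a1, Col12a1 and Col18a1. Col15a1 was at 2.31 to 3.17 TPM in KO mice against 2.20 to 3.92 TPM in KO controls, and at 2.89 to 3.30 TPM in R206W mice against 2.27 to 3.07 TPM in R206W controls. Its difference of effects was -0.44 on the log2 scale (adjusted p = 1). For Col20a1 the difference from controls was 0.38 in each line with all mice, and 0.24 in the KO line without KO control 1.

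At 3 weeks the P209L mice showed lower values for many collagen genes, but none passed the threshold. 0 of 28 genes were called, against 0.0984% of all genes (limma), and 4 had an unadjusted p under 0.05, against 7.46% of all genes; all 4 were lower, against 2.9% of all genes. Without P209L control 2 there were 0 such genes. The log2 difference was below 0 for 19 of 28 genes, against 46.2% of all genes, with a median of -0.13 against 0.02. The median was -0.059 without P209L control 2 and -0.25 without P209L control 1. In 9 of the 28 tested genes every P209L mouse was below both controls (Col1a1, Col1a2, Col3a1, Col6a1, Col8a1, Col9a3, Col11a2, Col15a1 and Col26a1). In 0 of the 28 every P209L mouse was above them. Over all genes tested these shares were 10.7% and 14.2%. Genes under the filter went both ways. Col5a3 was higher in P209L mice (1.63 to 1.81 against 1.08 and 1.21 TPM) and Col13a1 lower (0.32 to 0.50 against 0.68 and 0.70 TPM). The same 2 controls stand in the age comparison, so a gene high in them appears both as higher at 3 weeks and as lower in P209L mice.

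**Figure D4:**
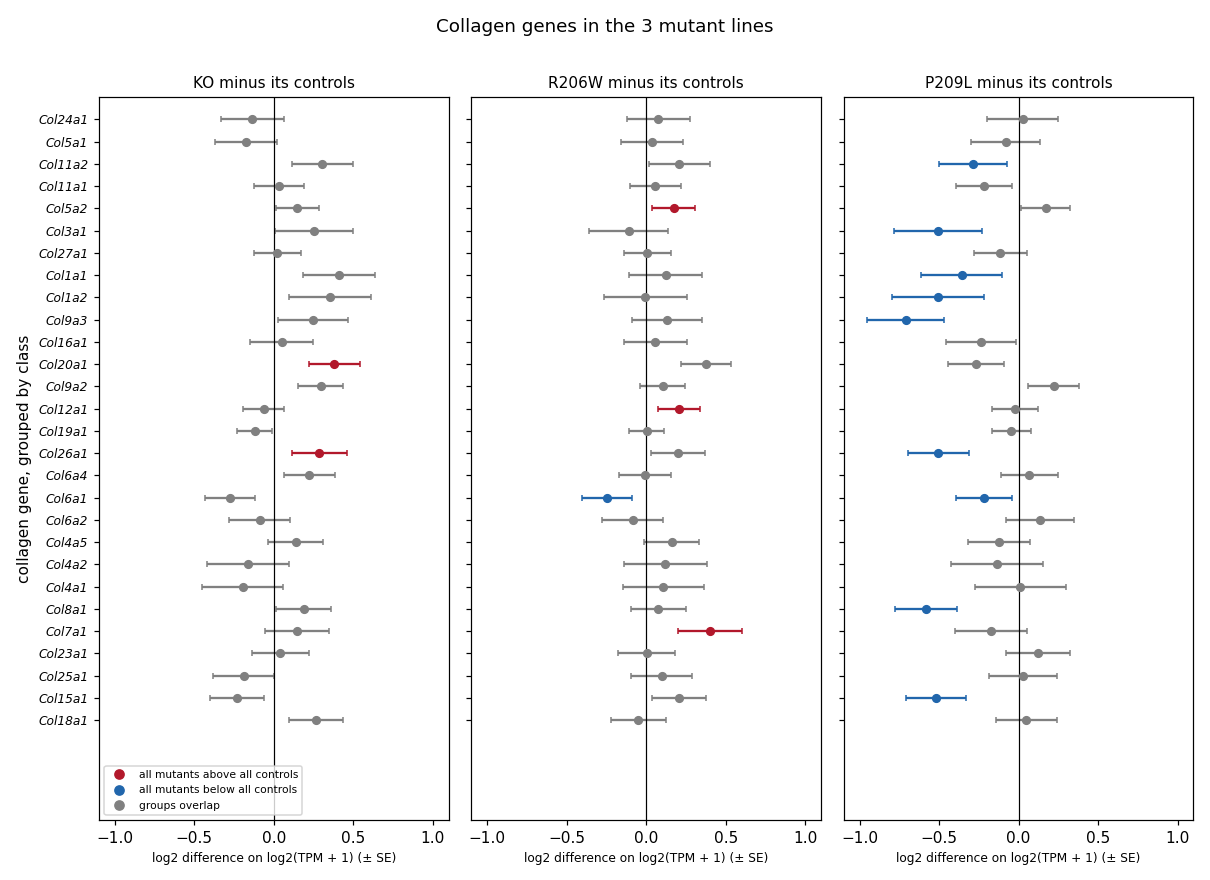
Difference of each mutant group from its own controls for the 28 tested collagen genes, on the log2(TPM + 1) scale with SE; red and blue mark genes whose mutants all lie above or below all controls. No point passed the adjusted threshold, and blue points are 9 for P209L, 1 for R206W and 0 for KO.

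The 4 genes were Col8a1, Col9a3, Col15a1 and Col26a1. Col8a1, which forms hexagonal networks beneath vessel endothelium, was at 1.32, 1.32 and 1.13 TPM in P209L mice and at 1.70 and 3.23 TPM in controls (log2 difference -0.58 ± 0.19, adjusted p = 0.43). The higher control was P209L control 2, the library with choroid plexus transcripts, and without it the difference was -0.26. Col9a3 differed by -0.71 ± 0.24 (adjusted p = 0.46) and by -0.48 without that library. Col15a1 was at 2.74, 2.86 and 4 TPM against 4.84 and 5.10 TPM (-0.52 ± 0.19, adjusted p = 0.51). Col26a1 was at 11.6, 13.2 and 16.0 TPM against 19.2 and 20.0 TPM (-0.50 ± 0.19, adjusted p = 0.54). For Col15a1 and Col26a1 both controls were close to each other.

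The chains of types I and III, made in the meninges and vessel walls, did not pass in P209L mice but had values below both controls. Col1a2 was at 2.55, 2.28 and 2.47 TPM against 3.60 and 4.16 TPM (log2 difference -0.51 ± 0.29, adjusted p = 0.78), Col1a1 at 0.81, 0.92 and 0.81 TPM against 1.29 and 1.44 TPM (-0.36 ± 0.26, adjusted p = 0.85), and Col3a1 at 1.58, 1.14 and 1.76 TPM against 2.18 and 2.90 TPM (-0.51 ± 0.28, adjusted p = 0.75). Summed, the 3 genes gave 4.34 to 5.04 TPM in P209L mice and 7.07 and 8.5 TPM in P209L controls. The P209L sums were the 3 lowest of all 17 mice, but 8-week mice came close, R206W 2 at 5.11 TPM and KO control 1 at 5.37 TPM. Leptomeningeal fibroblast markers were lower too: their summed TPM was 132 to 157 in P209L mice and 184 and 226 in controls. All 12 tested markers were below 0, with a median of -0.58, and 8 of them had no overlap. The same direction was seen for 10 of 10 brain endothelial markers (5 without overlap, median -0.31). It was also seen for 8 of 8 oligodendrocyte markers (8 without overlap, median -0.84). Over all genes, 10.7% were lower without overlap and the median was 0.02. None of these lists had a called gene in this comparison. Their part in the collagen differences was not tested.

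**Figure D5:**
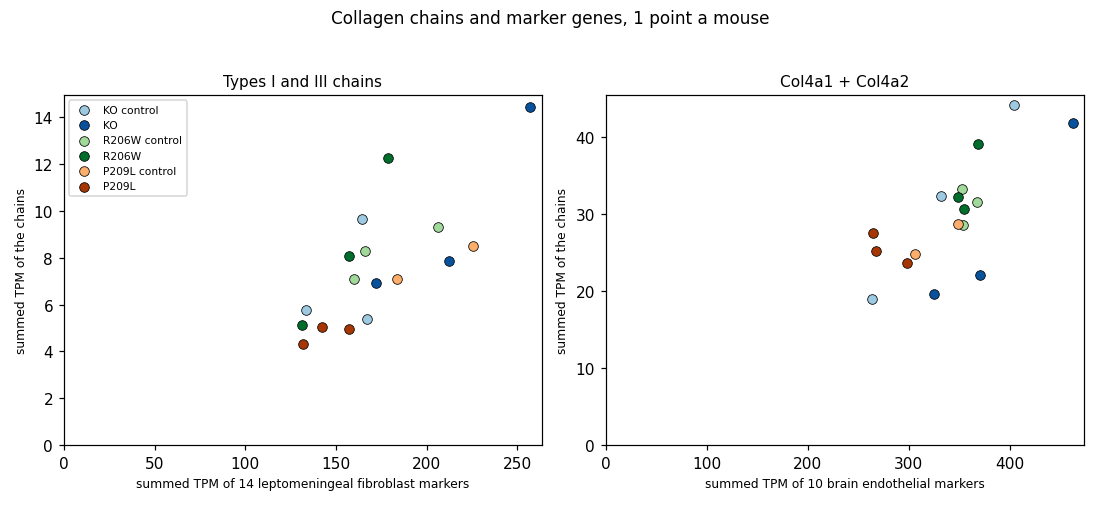
Left, summed TPM of Col1a1, Col1a2 and Col3a1 against that of 14 leptomeningeal fibroblast markers; right, Col4a1 plus Col4a2 against 10 brain endothelial markers, 1 point a mouse. The P209L mice have the 3 lowest sums of types I and III chains (4.34 to 5.04 TPM), with R206W 2 next at 5.11 TPM. KO 3 is highest on the left panel for both measures.

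The same markers also varied within groups at 8 weeks. KO 3 had the highest leptomeningeal fibroblast sum of all mice (257 TPM) and the highest sum of Col1a1, Col1a2 and Col3a1 (14.4 TPM). KO control 3 and KO 3 had the highest Col4a1 plus Col4a2 (44.2 and 41.9 TPM) and the highest brain endothelial sums (404 and 463 TPM), while KO control 1 was lowest for both (19.0 and 264 TPM). These sums describe single mice of different ages and libraries, and no test was made of them.

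Genes that act on collagen were read from the same fit, as a list of 31 biosynthesis genes, 10 receptors, 14 collagen-binding matrix genes and 11 degradation genes. At 3 weeks, 3 of 25 tested biosynthesis genes were higher and 4 lower, against 11.3% and 24.8% of all genes. Bmp1, which cleaves the C-terminal propeptide of fibrillar procollagens, was higher by 1.16 ± 0.19 on the log2 scale (adjusted p = 0.00046), as were the glycosyltransferase Colgalt1 (0.77) and the prolyl isomerase Ppib (0.65). The prolyl 4-hydroxylase subunits P4ha1 (-0.92) and P4ha2 (-0.61) and the export factors Sec23a (-0.73) and Mia3 (-0.80) were lower. The median of this list was -0.06, against -0.12 over all genes, with members in both directions.

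Of 7 tested receptors, Ddr2, a receptor tyrosine kinase for fibrillar collagen, was lower at 3 weeks (-0.48, adjusted p = 0.01) and none was higher. Of 13 tested collagen-binding matrix genes, Lama4 (0.85), Sparc (0.79) and Postn (0.60) were higher, while the proteoglycans Bgn (-0.93) and Fmod (-1.11) were lower. Of 8 tested degradation genes, the collagenolytic protease Ctsk was higher (1.16) and Mmp16 (-0.70) and the protease inhibitor Timp3 (-1.04) were lower. These counts too are to be read against 11.3% of all genes higher and 24.8% lower. In the KO, R206W and P209L comparisons none of these 4 lists had a called gene (limma). At an unadjusted p under 0.05 they held Lama4 (higher) in KO mice, P3h4 in R206W mice (log2 difference 0.59) and Pcolce, Bgn and Postn in P209L mice. Of Bgn and Postn, 1 was higher and 1 lower. These are few among the 25, 7, 13 and 8 tested genes of the 4 lists. Over all genes, 4.08% had such a p in the KO comparison, 2.19% in R206W and 7.46% in P209L. Pcolce, an enhancer of procollagen cleavage, was lower in P209L mice (log2 difference -0.86 ± 0.30, adjusted p = 0.49).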

How the data were processed

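The authors deposited TPM by gene symbol for cortex RNA (stranded total RNA libraries), with 2 decimals; the submitters' processing notes list Trim Galore, STAR 2.7.1a, GATK 4.0.4.0, RSEM and mm10, with no roles. No counts were used, so depth is unknown and precision rests on the spread between mice alone. In TPM, an abundant transcript in 1 library lowers its other genes. Repeated symbols were summed (55573 rows to 55453 symbols). Genes with a mean of at least 1 TPM were tested with limma 3.58.1 in R 4.3.3 on log2(TPM + 1), as 6 group means over all 17 mice with a trended prior, two-sided, Benjamini-Hochberg adjusted over 16265 genes, threshold 0.05. This scale understates changes of low genes. The fit was tested on simulated data. Alternatives were other pseudocounts, filters and scalings, mouse weights, a replicate block and leaving out each mouse. Positions came from GENCODE M21 and promoters from RefSeq, both on GRCm38. Named by rule were collagen genes past the threshold (up to 10 by p), else the 3 of lowest p, the highest of each class, partner chains and members of counts of 5 or fewer; other genes named were chosen after their values were seen. Members and lists were chosen with earlier results of these data known.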

Additional observations from a re-analysis of the deposited data

Results flagged for a closer look

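Col26a1 was flagged because its groups were apart in opposite directions: all 3 KO mice were above all KO controls and all 3 P209L mice below both P209L controls. The p-values that follow come from the values used for this choice, so they are no separate test of it. How many of all genes had this pattern was not counted. The KO effect minus the P209L effect was 0.79 ± 0.26 on the log2 scale, with an adjusted p of 0.44 in limma (unadjusted p = 0.0076 from the same fit), and 0 of 28 collagen genes and 8 of 16265 genes passed in that comparison. The lines also differ in age, and KO control 1 was the lowest of the KO controls for Col26a1 (6.35 TPM, against 9.04 and 9.23 TPM). Without KO control 1 the difference of KO mice from their controls was 0.13, against 0.29 with all mice. Groups of 2 or 3 mice are too small for a test of outlying samples.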

How the results depend on the processing

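Where values moved, the cause was not tested. The age count of 16 ranged from 10 (without P209L control 2) to 17 (without KO control 3) when mice were left out, and the median age difference of the collagen genes from 0.20 (without KO control 1 and P209L control 2, added after seeing the data) to 0.52 (without P209L control 1). It was 10 with a mean TPM of at least 5 (14 genes tested), 19 without a filter (44 tested), with size factors and with quantile normalization, and 14 with P209L mutants in place of their controls (added after seeing the data), 12 of them among the 16. In these fits 16.1% (no filter) to 45.8% (P209L mutants in place of controls) of all genes were called. Limma's array weights did not converge (they ran from 2.4e-14 to 138); they gave 1 call in P209L mice (2.32% of all genes called) and medians of -0.21 for KO, -0.12 for R206W controls against KO controls and -0.21 for KO minus R206W. With them the log2 difference turned to -0.038 for Col9a2 and -0.077 for Col1a1 in KO, -0.017 for Col6a2 between controls, -0.17 for Col18a1 in KO minus R206W and -0.21 for Col4a2 with age. Weights estimated gene by gene, added after seeing the data, gave 6 calls in KO, 1 in KO minus R206W and -0.059 for Col4a2 with age. Col4a2 was also -0.11 with P209L mutants in place of controls, and ran from -0.21 to 0.15 when mice were left out. The KO median was -0.11 with a mean TPM of at least 5. The summed collagen TPM became 166 in R206W controls and 238 in P209L mice with size factors. Without mitochondrial genes it became 204 in R206W controls, 212 in R206W mice, 294 in P209L controls and 254 in P209L mice.

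The main fit did not pair mice by replicate number. Within a line, same-numbered mice correlated at -0.11 to 0.33 in their deviations from group means, and mice of different numbers at -0.30 to 0.26. Such deviations sum to 0 in each group of 2 or 3 mice, so these correlations cannot say whether the numbers pair the mice. With the number as a replicate block, 17 collagen genes were called with age (15 higher, 2 lower, with 36.2% of all genes called), Col9a2 having joined, and 0 in each other comparison. Groups of 2 or 3 mice and an unknown depth limit what small differences can show.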
